A study of Drosophila melanogaster with 24 samples.

Results

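The CD36-family scavenger receptors described here are 7 genes of Drosophila melanogaster, chosen by their FlyBase symbols out of the 17698 gene identifiers counted: santa-maria, emp, crq, pes, ninaD, Snmp1 and Snmp2. The choice was made with the high level of santa-maria in day 5 control larvae already known, so that rise is described below without a test. All 7 symbols were found in the count table. A further 7 genes of the same family (dsb, CG2736, CG3829, CG7227, CG10345, CG31741 and CG40006) were read beside them for comparison.

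CD36-like receptors are cell-surface and endosomal proteins with a large extracellular loop held between a pair of membrane-spanning segments. They bind lipids, lipoproteins, carotenoids, microbes and the surfaces of dying cells, and many pass their cargo into the cell. In the fly, santa-maria and ninaD are known for carotenoid uptake on the way to the visual pigment, crq for the engulfment of apoptotic cells by haemocytes, pes for mycobacterial entry, emp for the uptake of luminal material by airway epithelia, and the Snmp genes for pheromone sensing. The larval fat body is the insect's lipid store and the main source of circulating lipoproteins.

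Fat bodies were dissected from larvae that carried wing disc tumours and from control larvae, and total RNA was extracted and sequenced as read pairs of 150 bp. Tumour larvae had the genotype C855a-Gal4/UAS-scrib-RNAi, in which an epithelial driver lowers the polarity gene scrib, and were sampled at days 4, 5, 8 and 11 after egg laying. Control larvae had the genotype C855a-Gal4/UAS-control-RNAi and were sampled at days 4 and 5, so all groups carried the same driver. Eggs were laid within 3 hours, 50 larvae were pooled for every library, and each of the 6 groups had 4 libraries. The tumour larvae do not pupate, per the design text, and days 8 and 11 have no control of the same age. Separate cultures are not named for the pools of a group, and the p-values therefore cover only the spread between these libraries, which may be technical.

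The 24 libraries held between 16074877 and 23352151 counted reads. The labels name the cells as adipocytes, and all 8 fat body marker genes were detected in every group, with a summed level of 443720 to 618350 CPM, the reads per 1000000 reads of a library after TMM scaling, in controls and day 4 tumour larvae, 257860 to 402360 at tumour day 5, 93776 to 149160 at day 8 and 55512 to 74339 at day 11. Lsp1beta held 35.8% of this sum over the 24 libraries, and the markers did not move together. At day 5, where 54.9% of all genes were called, 5 of the 8 were called higher in tumour than in control larvae. Only Fbp1 was called lower, yet the sum was lower in tumour larvae, so it does not stand for every marker. In such bulk samples fewer cells of a type and less RNA per cell cannot be told apart. The gene scrib itself, targeted in the epithelia, read 27.9 to 48.4 CPM in the fat body libraries, and its level differed from controls by -0.23 on the log2 scale at day 4 (adjusted p = 0.0922) and by -0.31 at day 5 (adjusted p = 0.01), in edgeR's quasi-likelihood test. Salivary gland markers stood high in replicate 2 of control day 4 and replicate 3 of control day 5, at 1561 and 1667 CPM, against 4.83 to 285 CPM in the other controls. Testis markers summed to 106 CPM in replicate 1 of tumour day 5 and to 3.00 to 4.41 CPM in the other 3 libraries of that group. The gut, neuron and disc lists rested on single genes (LManII, Syt1 and ap held 92.2%, 87.2% and 84.1% of their sums), so their totals say little about those tissues.

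Of the 7 receptors, ninaD, Snmp1 and Snmp2 had almost no reads and were not tested. The midgut carotenoid receptor ninaD had 6 reads in all 24 libraries, from 3 libraries, and no library held more than 2. The pheromone co-receptor Snmp1 had 17 reads, spread over 10 libraries with at most 4 in one, and Snmp2 had 12 reads in 6 libraries, also with at most 4. A count of 0 allows up to 3 counts, which is 0.0855 to 0.234 CPM in these libraries, so a library at 0 may still have a level under that. The other 4 receptors, santa-maria, emp, crq and pes, passed the filter on low counts. santa-maria passed through the groups in which it is present, since its day 4 and day 5 tumour libraries hold at most 2 reads each.

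The carotenoid receptor santa-maria (FBgn0025697, chromosome arm 2L, 7445355 to 7451244, minus strand, BDGP6.54) had the widest range of levels among the 7 receptors. At control day 4 the 4 libraries held 7, 11, 14 and 29 reads, or 0.536, 0.729, 1.09 and 1.85 CPM. At control day 5 they held 11992, 6873, 7190 and 11911 reads, or 727, 471, 404.5 and 708 CPM. The mean was 578 ± 164 CPM (SD, n = 4) at day 5 against 1.05 ± 0.579 CPM (SD, n = 4) at day 4, with no overlap, a ratio of 549 that is given as a description because it chose the gene.

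In tumour larvae santa-maria had almost no reads at both early days. At tumour day 4 the libraries held 0, 0, 1 and 0 reads, and at tumour day 5 they held 1, 0, 2 and 0. Every control day 4 library lay above every day 4 tumour library. The gene was lower at day 4 by a count ratio of 65.2 (95% exact binomial interval 11.3 to 2618, on 1 count in the tumour libraries, counting error only). No test is given, because the gene passed the filter only through groups in which it is high and did not pass it in a fit of the day 4 groups alone. The day 5 tumour libraries held 3 reads in all and the day 5 controls 37966, with no overlap, and that contrast is likewise left untested.

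santa-maria was present again in the late tumour larvae. At tumour day 8 the libraries held 256, 202, 347 and 815 reads, or 11.0, 9.53, 15.0 and 31.0 CPM. All 4 were above all 4 libraries of tumour day 5, and the count ratio was 415 (95% exact binomial interval 142 to 2014, on 3 counts at day 5, counting error only). This too is a description, for the same reason. At tumour day 11 the reads were 87, 87, 400 and 109, or 3.24, 3.15, 13.6 and 3.11 CPM. Replicate 3 stood above the other 3 and inside the day 8 range. The log2 difference between days 11 and 8 was -1.53 ± 0.44 (SE; adjusted p = 0.0595, edgeR quasi-likelihood), and without replicate 3 of day 11 it was -2.39 with an adjusted p of 0.00186. The means of days 8 and 11, 16.6 ± 9.87 and 5.77 ± 5.22 CPM (SD, n = 4 each), were 2.88% and 1.00% of the control day 5 mean. Exons of santa-maria share 528 bp with CG5973 on the other strand, and the use of strand in counting is not given. CG5973 read 0.133 to 4.22 CPM over all libraries, highest at tumour day 11 (3.81 to 4.22 CPM). At tumour days 4 and 5 CG5973 had 60 and 73 reads while santa-maria had 1 and 3, and at day 11 they had 476 and 683.

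**Figure D1:**
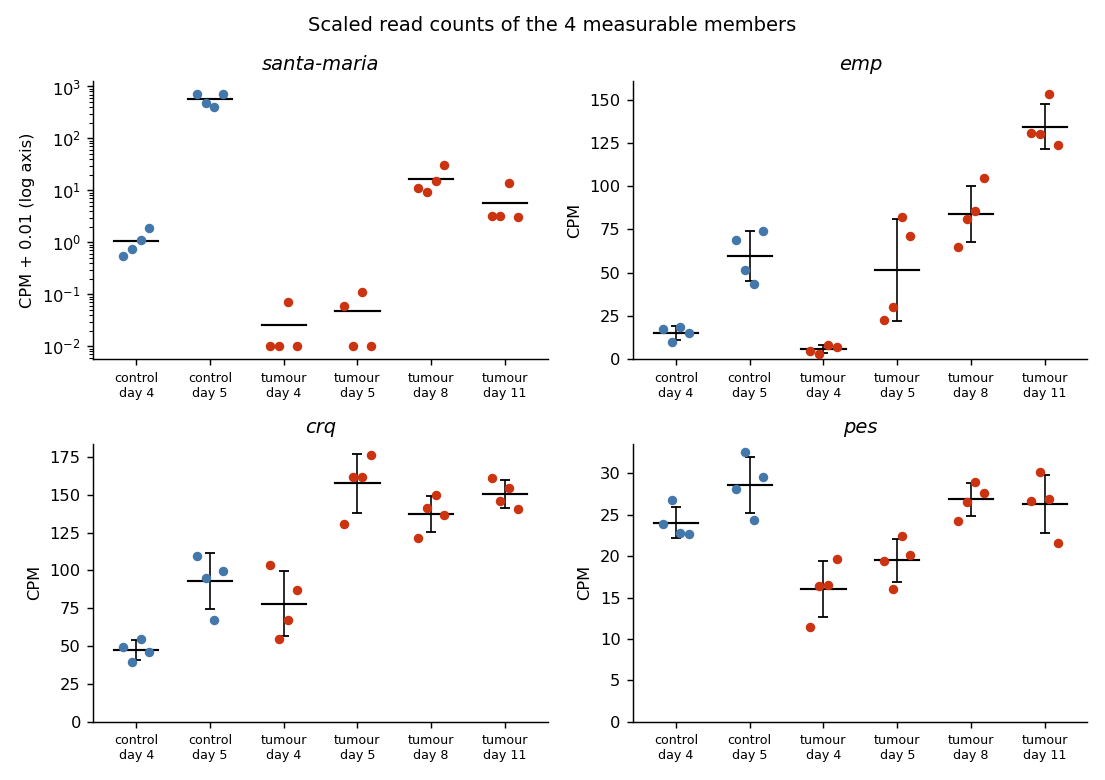
Scaled read counts (CPM) of santa-maria, emp, crq and pes in 6 groups of 4 fat body libraries; points are libraries, horizontal lines are group means and bars are SD, and santa-maria is on a log axis with 0.01 CPM added and no SD bars. In santa-maria the 4 control day 5 libraries lie between 404.5 and 727 CPM, while no tumour library exceeds 31.0 CPM.

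The epithelial receptor emp (FBgn0010435, 2R, 24976456 to 24986070, minus strand) was low in young tumour larvae and climbed with age. At control day 4 it read 17.4, 9.75, 18.4 and 14.9 CPM, and at tumour day 4 it read 4.56, 2.77, 7.99 and 6.81 CPM. The 2 groups did not overlap, and the log2 difference was -1.45 ± 0.36 (SE; adjusted p = 0.00544, edgeR quasi-likelihood). At day 5 controls read 69.0, 51.4, 43.7 and 74.0 CPM and tumour libraries 22.8, 30.3, 82.3 and 71.2 CPM. The day 5 tumour group was split, with replicates 1 and 2 below all controls and replicates 3 and 4 within or above their range, and its log2 difference from controls was -0.20 ± 0.33 (SE; adjusted p = 0.626, edgeR quasi-likelihood). Without replicates 1 and 2 this difference was 0.36, and without replicate 1 alone 0.04. The change of the tumour effect from day 4 to day 5 was 1.25 ± 0.49 (SE; adjusted p = 0.0618, edgeR quasi-likelihood) and was called in 7 of 24 alternatives.

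Replicates 1 and 2 of tumour day 5 also had the highest fat body marker sums of their group, 402360 and 399710 CPM, against 257860 and 285400 CPM in replicates 3 and 4. Replicate 3, with the highest emp value, also had the highest sums of muscle markers (371 CPM) and of disc and epidermis markers (176 CPM) of the group. Replicate 4, also high in emp, read 168 and 110 CPM, and replicates 1 and 2 read 210 and 166 CPM for muscle and 92.1 and 91.0 CPM for disc and epidermis. Over the 24 libraries bt held 72.8% of the muscle sum and ap 84.1% of the disc and epidermis sum. Without bt the muscle sums at tumour day 5 ran from 25.7 to 246 CPM. Without ap the disc and epidermis sums ran from 3.50 to 67.6 CPM. The part of tissue composition in the emp values was not tested. Within tumour larvae emp rose from day 4 to day 5 by 3.23 ± 0.37 on the log2 scale (SE; adjusted p = 4.96e-07, edgeR quasi-likelihood), with no overlap of the groups. It read 65.1, 80.9, 85.6 and 105 CPM at day 8 and 131, 130.3, 153 and 124 CPM at day 11. Every day 11 library lay above every day 8 library, yet the log2 difference of 0.68 ± 0.33 did not pass the test (SE; adjusted p = 0.323, edgeR quasi-likelihood). In a fit of these 2 groups alone it was 0.67 and was called (adjusted p = 0.0119), and in the fit of all groups the step from day 5 to day 8, 0.70 ± 0.33, did not pass (adjusted p = 0.124). The day 11 mean of 135 ± 13.0 CPM (SD, n = 4) was the highest of the 6 groups, against 59.5 ± 14.3 CPM in day 5 controls.

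The engulfment receptor crq, or croquemort (FBgn0015924, 2L, 448254 to 453024, minus strand), was higher in tumour than in control fat bodies at both days. At day 4 it read 49.4, 39.3, 54.5 and 46.0 CPM in controls and 103, 54.7, 67.0 and 86.7 CPM in tumour larvae. The lowest tumour library was just above the highest control, and crq rose by 0.72 ± 0.17 on the log2 scale (SE; adjusted p = 0.00278, edgeR quasi-likelihood). In a fit on these 2 groups alone the change was 0.69, with an adjusted p of 0.0684. At day 5 it read 109.7, 95.2, 67.1 and 99.9 CPM in controls and 131, 162, 162 and 176 CPM in tumour larvae, and it rose by 0.76 ± 0.16 (SE; adjusted p = 0.000494, edgeR quasi-likelihood). The 2 groups again did not overlap. Tumour effects at days 5 and 4 differed by 0.04 ± 0.23 (SE; adjusted p = 0.914).

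In tumour larvae crq also rose with age, by 1.02 ± 0.17 on the log2 scale from day 4 to day 5 (SE; adjusted p = 3.38e-05, edgeR quasi-likelihood). It then read 122, 142, 149.6 and 136 CPM at day 8 and 161, 146, 154 and 140.3 CPM at day 11. These groups overlapped with their neighbours, and the changes from day 5 to 8 (-0.20, adjusted p = 0.4) and from day 8 to 11 (0.13, adjusted p = 0.814) did not pass the edgeR quasi-likelihood test. Because crq is a haemocyte gene, the summed level of 8 haemocyte markers, none of them at 0, was read beside it. It was 143 to 254 CPM at control day 4, 57.0 to 110.3 at control day 5, 184 to 501 at tumour day 4, 183 to 366 at tumour day 5, 267 to 406 at day 8 and 663 to 872 at day 11. The haemocyte sum was thus higher in tumour than in control libraries at day 5, as crq was, but it was highest at day 11, where crq was no higher than at day 5. Between the control days the sum was lower at day 5 while crq was higher, but its markers were split. Of the 8, 2 were called higher at day 5 (NimC1 and eater) and 4 lower (Hml, PPO1, PPO2 and Sr-CI), where 55.0% of all genes were called. The part of haemocytes in the crq values was not tested. Exons of crq share 448 bp with ex on the other strand, which read 6.45 to 40.4 CPM over all libraries and was higher in day 5 controls (29.2 to 40.4 CPM) than in tumour larvae of that day (6.45 to 25.4 CPM). Between the control days ex was higher at day 5, as crq was (11.0 to 16.1 CPM at day 4). The part of ex reads in the crq values was not tested.

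The receptor pes, or peste (FBgn0031969, 2L, 7986786 to 7994184, minus strand), was lower in tumour larvae at both days by a small and even amount. At day 4 it read 23.9, 26.7, 22.8 and 22.6 CPM in controls and 11.4, 16.4, 16.5 and 19.7 CPM in tumour larvae. At day 5 it read 28.1, 32.5, 24.4 and 29.5 CPM in controls and 19.4, 16.05, 22.4 and 20.1 CPM in tumour larvae. Every tumour library was below every control of its day, and pes fell by 0.59 on the log2 scale at day 4 (SE 0.14, adjusted p = 0.00315) and by 0.55 at day 5 (SE 0.14, adjusted p = 0.00157), both in edgeR's quasi-likelihood test. From day 5 to day 8 pes rose again by 0.46 ± 0.14 (SE; adjusted p = 0.0144), to 24.3, 26.6, 29.0 and 27.6 CPM, all above the day 5 tumour libraries. Without replicate 2 of tumour day 5 the change was 0.38 (adjusted p = 0.0605), and without replicates 1 and 2 it was 0.34 (adjusted p = 0.201). The day 11 libraries read 26.6, 30.1, 26.9 and 21.6 CPM.

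These calls were read against all 8707 genes tested. At day 4, 25.2% of all genes were called between tumour and control (14.6% higher and 10.5% lower), and emp, crq and pes were among them, crq higher and emp and pes lower. In a fit of the day 4 groups alone crq was not called, which left 2 receptors, emp and pes. santa-maria is not counted here, for the reason given above. At day 5 the share over all genes was 54.9%, with 26.7% higher and 28.2% lower. Of the 3 receptors tested crq was higher, pes was lower and emp was not called, a share close to the background. For the difference of the tumour effect between the days 28.8% of all genes were called and 0 of the 3 receptors in edgeR's test. Of these, emp had an unadjusted p of 0.019 and was called by DESeq2, while crq and pes had 0.86 and 0.863. From tumour day 4 to day 5, 44.0% of genes were called (19.6% higher and 24.5% lower), among them emp and crq, both higher. There pes differed by 0.285 on the log2 scale (adjusted p = 0.098, edgeR quasi-likelihood). It was called higher in 5 of 15 alternatives, DESeq2 among them (adjusted p = 0.023). From tumour day 5 to day 8, 26.1% were called (12.0% higher and 14.0% lower), among them pes, which was higher, with santa-maria again not counted. From day 8 to day 11, 3.34% were called (1.72% higher and 1.62% lower) and 0 of the 4 receptors in edgeR's test. There 1 receptor, santa-maria, had an unadjusted p under 0.05 (0.0023), and DESeq2 called 0. Between control days 4 and 5, the contrast that chose the set, 55.0% of genes were called (25.8% higher and 29.2% lower). There emp, crq and pes differed by 1.98, 0.98 and 0.25 on the log2 scale, given as a description only.

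**Figure D2:**
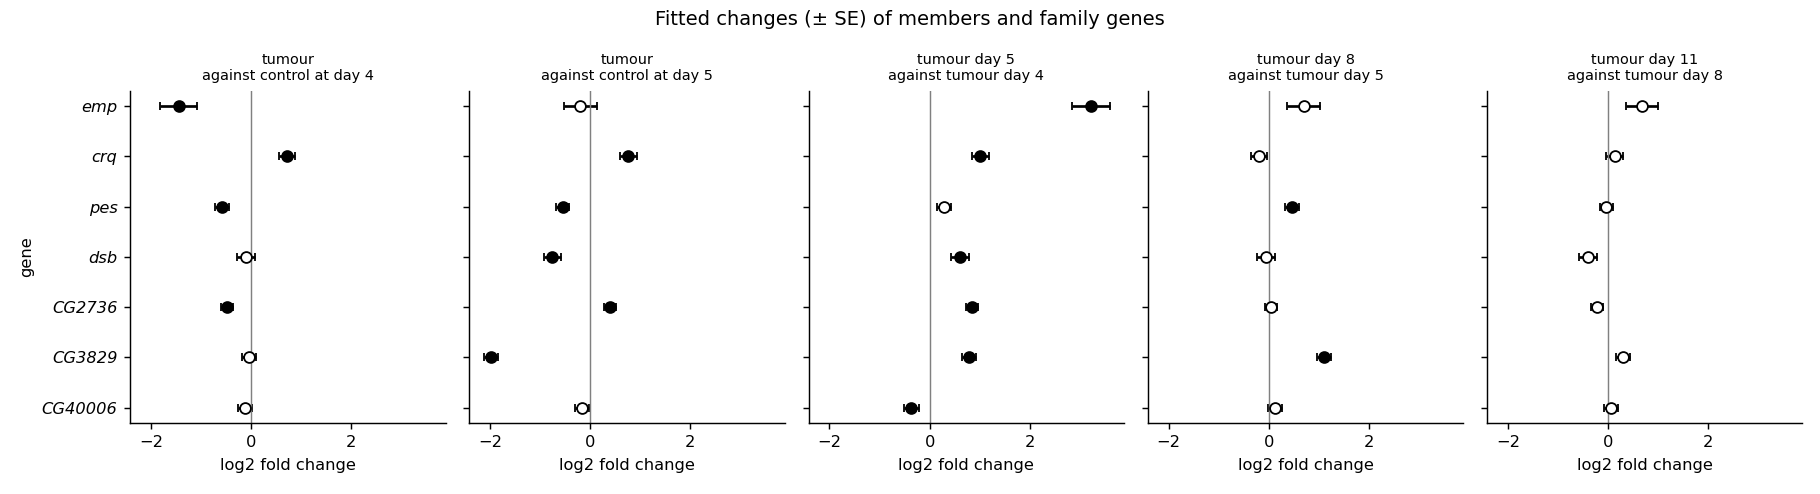
Fitted log2 fold changes ± SE (x axis) of 3 members and 4 other CD36-family genes (y axis) in 5 comparisons, filled where the adjusted p was under 0.05; santa-maria and CG7227 are left out because in groups with almost no reads a fitted fold depends on the prior count. At tumour day 5 against day 4 emp has the largest change shown, 3.23.

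Levels of different receptors are compared only per kilobase of annotated exon. On that scale santa-maria in day 5 controls (104 ± 29.5 CPM per kb, SD, n = 4) was below CG2736 (502) and CG3829 (203) and above the rest of the family, and its range overlapped that of dsb (69.0). It ranked 507 among 8626 genes in day 5 controls, 7700 in day 4 controls and 8605 at tumour day 5. Among the 4 members crq was the highest in every other group, at 16.6 CPM per kb in day 4 controls, 27.4 at tumour day 4 and 55.3 at tumour day 5. In day 4 controls pes (6.25) was above emp (4.29) without overlap, whereas at tumour day 11 emp (38.2) was above pes (6.84). The family's sum was 603 ± 70.0 CPM per kb at control day 4, 941 ± 87.2 at control day 5, 459 ± 93.9 at tumour day 4 and 828 ± 70.4 at tumour day 5 (SD, n = 4 each). CG2736 alone made up 53.5% of it in day 5 controls and 68.5% to 85.1% in the other groups. santa-maria made up 10.9% in day 5 controls and at most 0.32% elsewhere.

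**Figure D3:**
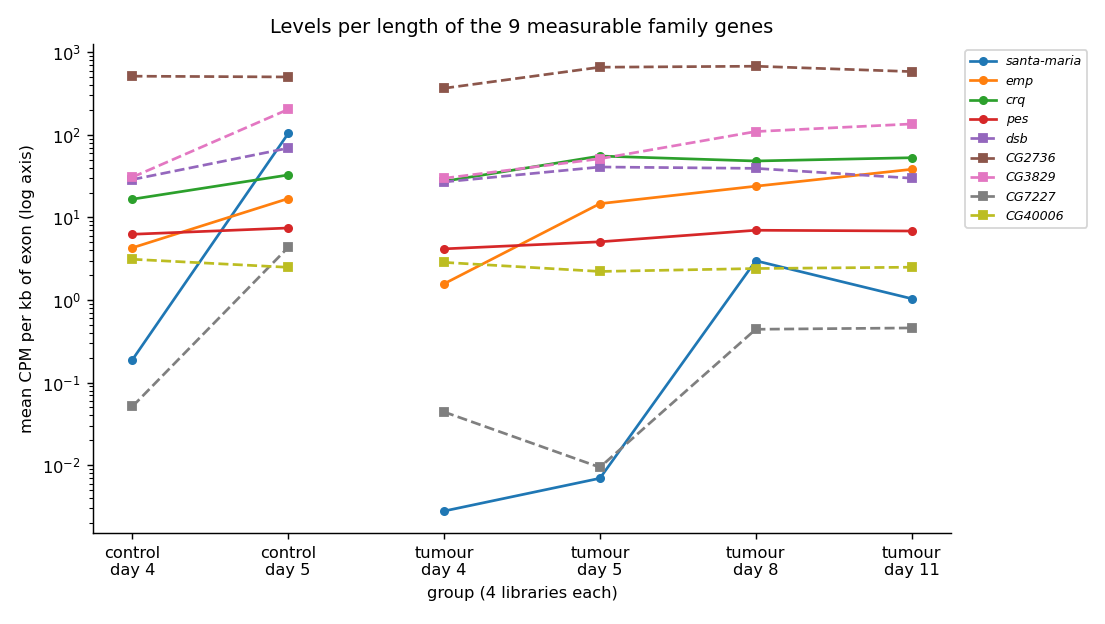
Mean CPM per kilobase of exon (log axis) of 9 CD36-family genes with enough reads, over 6 groups of 4 libraries; solid lines and circles are members, dashed lines and squares are other family genes. The santa-maria and CG7227 lines reach their lowest points at tumour days 4 and 5, while CG2736 stays highest throughout.

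The other family genes included 2 more whose day 5 level was much lower in tumour larvae. CG3829 (2R, 24986044 to 24990489, plus strand), which begins 27 bp inside emp, read 737, 572, 580.3 and 715 CPM in day 5 controls and 153, 141, 206 and 158 CPM in tumour larvae. It was lower by 1.99 on the log2 scale (SE 0.14, adjusted p = 2.21e-10, edgeR quasi-likelihood), and its tumour effect at day 5 differed from that at day 4 by -1.94 ± 0.20 (SE; adjusted p = 2.77e-07). Its mean was 98.3 CPM at control day 4 and 651 CPM at control day 5. In tumour larvae it was 95.4 CPM at day 4 and 164 CPM at day 5. CG3829 thus rose with age in both, by less in tumour larvae. It rose by 1.09 ± 0.14 from tumour day 5 to day 8 (SE; adjusted p = 5.98e-06). CG7227 (2L, 7994388 to 7998151, minus strand), which lies 203 bp from pes, held 216, 161, 134 and 262 reads in day 5 controls and 1, 0, 1 and 0 in tumour larvae. It was lower by a count ratio of 425 (95% exact binomial interval 117 to 3514, on 2 counts, counting error only), and higher at tumour day 8 by a ratio of 44.2 (11.95 to 369, on 2 counts). As with santa-maria, these ratios are descriptions, because CG7227 passed the filter only through groups in which it is high. Of the 2720 bp of CG7227 exons, 1501 bp are shared with asRNA:CR44996 on the other strand, which had 0 reads in all 24 libraries.

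Of the other family genes at day 5, where 54.9% of all genes were called, CG2736 was higher in tumour larvae and CG3829 and dsb were lower. CG7227 was not counted. At day 4, where 25.2% of all genes were called, CG2736 was called, lower. CG2736, the most abundant, read 899, 740.3, 975 and 925 CPM in day 4 controls and 620, 526, 557 and 825 CPM in day 4 tumour larvae, and fell by 0.49 (SE 0.12, adjusted p = 0.00393, edgeR quasi-likelihood) with overlapping ranges. In a fit of the day 4 groups alone the difference was -0.52 (adjusted p = 0.0837). At day 5 it read 922, 827, 881 and 833 CPM in controls and 1049, 1181, 1251 and 1063 CPM in tumour larvae, and it rose by 0.39 (SE 0.12, adjusted p = 0.00722). Its tumour effects at the 2 days differed by 0.88 ± 0.17 (SE; adjusted p = 0.000358). The receptor dsb, debris buster, was lower in tumour larvae at day 5 by 0.76 (SE 0.18, adjusted p = 0.00101, edgeR quasi-likelihood). It averaged 134 CPM at control day 4 and 323 CPM at control day 5. In tumour larvae it averaged 126 CPM at day 4 and 191 CPM at day 5, so it rose in both. The difference of its tumour effects, -0.66, did not pass the same test (adjusted p = 0.0509). CG40006 was called in no tumour against control comparison. CG10345 had 38 reads in all, 27 of them in replicate 3 of tumour day 5, and CG31741 had 1.

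**Figure D4:**
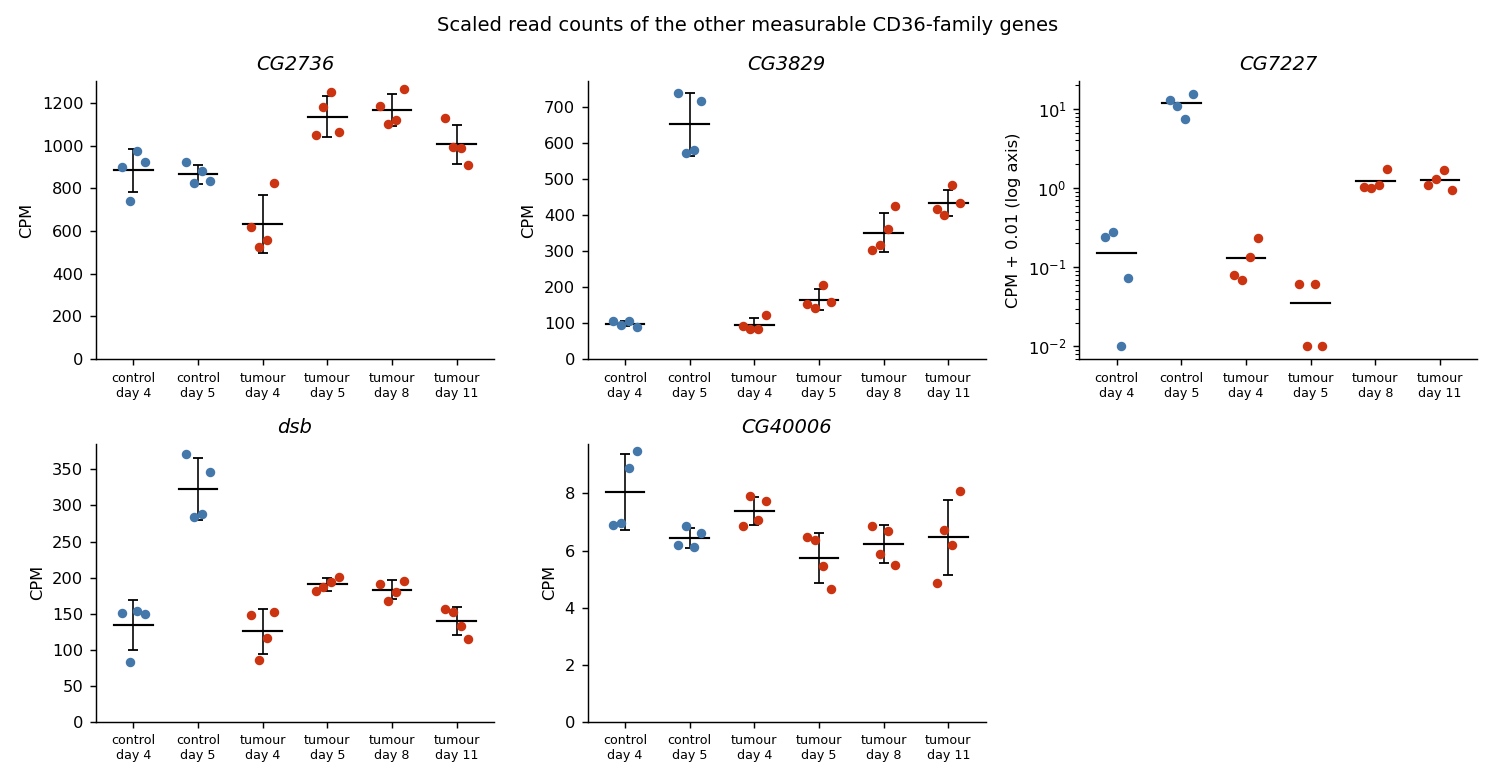
CPM of CG2736, CG3829, CG7227, dsb and CG40006 in 6 groups of 4 libraries, with points for libraries, lines for means and bars for SD; CG7227 is on a log axis with 0.01 CPM added and no SD bars. The CG3829 values of day 5 controls (572 to 737 CPM) are above all others of that gene.

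Genes whose profile was most like that of each member were named by the Pearson correlation of log2(CPM + 1) over the 24 libraries, which share groups and so are no independent points. For santa-maria they were Eip78C, an ecdysone-induced nuclear receptor (r = 0.99), CG5618 (0.989) and lncRNA:CR45593 (0.989). These r values include the control day 5 libraries, whose santa-maria level chose the gene. Eip78C, CG5618 and lncRNA:CR45593 were also highest there, with means of 145, 365 and 46.5 CPM. The correlations of santa-maria are therefore a description only. Within the family its profile was most like CG7227 (0.976) and then CG3829 (0.835), and least like CG40006 (-0.154). For emp they were Rhp (0.96), CG6357 (0.953) and CtsB, a cathepsin (0.95). For crq they were lncRNA:CR42874 (0.986), a gene named by its identifier FBgn0037636 (0.978) and CG14767 (0.969). For pes the highest values were lower, with CG31523 (0.903), CG31100 (0.895) and scny (0.871).

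Of 5 genes of carotenoid and retinoid handling, 2 passed the filter. The retinoid-binding protein gene pinta averaged 8.20 CPM in day 4 controls, 8.24 in day 5 controls, 21.2 at tumour day 4, 42.0 at day 5, 44.2 at day 8 and 46.0 at day 11. It rose by 1.37 ± 0.25 at day 4 (SE; adjusted p = 0.000352) and by 2.35 ± 0.25 at day 5 (SE; adjusted p = 7.66e-08, edgeR quasi-likelihood), while santa-maria was near 0 there. ninaG was not called. The carotenoid-cleaving enzyme gene ninaB, which acts after santa-maria in vision, had 0 to 7 reads per group.

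Of 11 other scavenger and phagocytic receptor genes, 9 were tested. At day 4, 3 rose (NimC1, Sr-CI and drpr) and 1 fell (NimC2), with a median log2 difference of 0.50 against 0.005 over all genes, of which 25.2% were called. At day 5, 2 rose (Sr-CI and drpr) and 3 fell (NimC2, Sr-CIV and ced-6), with a median of 0.17 against 0.03, a share called close to the 54.9% of all genes. The engulfment receptor drpr rose by 0.50 ± 0.12 at day 4 (SE; adjusted p = 0.00423) and by 1.65 ± 0.13 at day 5 (SE; adjusted p = 4.55e-10), while ced-6, which encodes its adaptor, fell by 1.29 at day 5 (SE 0.16, adjusted p = 7.81e-07). The Nimrod gene NimC2 averaged 448 CPM in day 4 controls and 5.37 CPM at tumour day 4, and fell by 6.39 on the log2 scale (SE 0.68, adjusted p = 1.08e-06). At day 5 it averaged 4115 CPM in controls and 42.5 CPM in tumour larvae, and fell by 6.60 (SE 0.67, adjusted p = 4.27e-08). From tumour day 8 to day 11, 4 of the 9 rose, NimC1, NimC4, Sr-CI and eater, where 3.34% of all genes were called. NimC1, Sr-CI and eater are also among the haemocyte markers, whose sum was higher at day 11 than at day 8.

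Of 14 genes of lipid uptake and carriage, 13 were tested. At day 4, 5 rose (Apoltp, LRP1, LpR1, Mtp and apolpp) and 3 fell (Fatp3, Npc1a and Npc2a), against 25.2% of all genes called. At day 5, 4 rose (Apoltp, LpR1, Mtp and apolpp) and 4 fell (Fatp1, Fatp3, Npc1a and fabp), close to the 54.9% of all genes called. The medians at the 2 days were 0.07 and -0.10 against 0.005 and 0.03 over all genes. The lipid transfer particle gene Apoltp averaged 543 CPM in day 4 controls and 1110.3 CPM at tumour day 4, and rose by 1.03 ± 0.24 (SE; adjusted p = 0.00304) and at day 5 by 1.37 ± 0.24 (SE; adjusted p = 5.57e-05, edgeR quasi-likelihood). The fatty acid carrier gene fabp fell at day 5 by 0.67 (SE 0.21, adjusted p = 0.0102).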

How the data were processed

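The authors deposited raw counts of reads per gene for 24 libraries, without normalization, per the file header; STAR 2.5.4a and the build BDGP6 are named without a role, per the submitters' processing notes. For the program that counted reads, its use of strand and the annotation release, nothing is given in the sources used here, so reads of overlapping genes on opposite strands cannot be told apart. Counts were analysed with edgeR 4.0.16 (limma 3.58.1) under R 4.3.3, and tables were made in Python 3.11.15. filterByExpr on the 6 groups left 8707 genes, libraries were scaled by TMM, and all 24 libraries entered one robust quasi-likelihood fit with 1 mean per group; Benjamini-Hochberg adjusted p under 0.05 over all genes was called, and the standard error is the log2 change over the square root of F. The biological coefficient of variation was 0.284. CPM used TMM-effective library sizes. No 2 libraries of a group agreed within sampling noise (chi-square per degree of freedom 8.99 to 221). DESeq2 1.42.0, RLE scaling, no filter, a replicate block, scaling that leaves out the 20 most abundant genes and fits on the compared groups only were alternatives. Each library was also left out in turn. So were the 2 controls with the highest salivary gland marker sums, and the 2 tumour day 5 libraries with the highest gut and testis marker sums. Symbols were found for 17560 of 17698 identifiers, and 126 of 128 list entries matched. Exon lengths and coordinates are from the Ensembl BDGP6.54 annotation. Intervals and limits from counts cover counting error only. The script was tested on simulated counts. Members, lists and tests were chosen with earlier results of these data known. Genes of the lists were named whether called or not. Outside the CD36 family, those given with a log2 change were among up to 4 called members of their list with the highest mean CPM. The 3 genes most like each member were also named.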

Additional observations from a re-analysis of the deposited data

Results flagged for a closer look

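In 4 genes, 1 library stood apart from the rest of their group of 4 libraries by Dixon's test, which flags about 1 in 20 groups by chance. All 14 family genes were scanned in each of the 6 groups, apart from groups with few reads of the gene, so some flags are likely by chance alone. santa-maria read 13.6 CPM in replicate 3 of tumour day 11, against 3.11 to 3.24 CPM in the other 3. dsb read 83.1 CPM in replicate 2 of control day 4, the library with the most salivary gland RNA of its group. CG7227 read 1.71 CPM in replicate 4 of tumour day 8, and CG10345 read 1.40 CPM in replicate 3 of tumour day 5, from 27 reads. The tumour effect at day 5 minus that at day 4, tested as an interaction in edgeR's quasi-likelihood fit, differed by 0.88 on the log2 scale for CG2736, by -1.94 for CG3829 and by -8.19 for CG7227, the last a fitted value on 2 reads in the day 5 tumour libraries, of a gene that passed the filter only through groups in which it is high.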

How the results depend on the processing

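The 22 tests of members, which include 3 of santa-maria in contrasts that the report gives without a test, were repeated under 354 alternatives, of which 319 kept both direction and side of the threshold, 3 lost a call, 17 gained one and 15 changed sign; no value was called after its sign changed. With only the groups compared in the fit, 1065 genes and 2 members were called between tumour and control at day 4. The fit of all groups gave 2191 and 4, santa-maria among the 4. In the fit of the compared groups santa-maria and CG7227 did not pass the filter and have no value. From tumour day 5 to 8, leaving out the 2 tumour day 5 libraries with the highest gut and testis marker sums gave 1193 genes and 1 member (2270 and 2). These libraries were replicates 1 and 2, with sums of 1549 and 1396 CPM, or 500 and 269 CPM without LManII. Both also had the highest fat body marker sums of their group. Leaving out single libraries gave 1 to 3 members. These member counts include santa-maria, which is given without a test in this contrast. Without the 2 libraries pes lost its call, and the 1 member left was santa-maria. From day 8 to 11, 559 genes were called by DESeq2, 187 with no filter, 835 with only these groups and 137 to 277 without single libraries (291), and 1 member with the replicate block, with only these groups, and at most 1 (0 to 1) without single libraries. For the difference of the tumour effect 1 member was called by DESeq2, with the replicate block, and without the 2 day 5 libraries, and 0 to 1 without single libraries.

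Changes of sign, none called, were emp at day 5 (0.36 without the 2 day 5 libraries, -0.467 to 0.041 without single libraries), the differences of the tumour effect of crq (-0.016 without the 2 controls with most salivary gland RNA, -0.103 to 0.199 without single libraries), pes (-0.002 with no filter, -0.099 without those 2 controls, -0.104 to 0.14) and CG40006 (0.023 with scaling without the 20 most abundant genes, 0.016 with only the groups compared, -0.136 to 0.04). At day 4 they were CG3829 (-0.179 to 0.018), dsb (-0.265 to 0.055) and CG7227 (0.261 without those 2 controls, -0.694 to 0.261). From day 8 to 11 they were pes (-0.1 to 0.054), CG7227 (-0.12 to 0.271) and CG40006 (-0.071 to 0.168). CG2736 changed sign from tumour day 5 to 8 (-0.016 with the 20 most abundant genes left out of scaling, 0.0 to 0.067) and between control days (0.018 with RLE scaling and 0.018 with DESeq2, -0.104 to 0.022). The cause was not tested.

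Deviations of same-numbered libraries from their group means correlated with a median of 0.0186 over 60 pairs, against -0.0118 for the other pairs. Single pairs ranged from -0.3 to 0.512, and 17 of the 60 were over 0.1. A median over all pairs cannot decide whether the numbers pair the samples of some groups, so the main fit used no pairing. With a replicate block emp was called for the difference of the tumour effect (adjusted p = 0.0475) and from tumour day 5 to 8 (0.0484), and santa-maria from day 8 to 11 (0.0423).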
